A study of Mus musculus with 12 samples.

Results

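Xaf1, Pttg1 and Gemin5 are 3 genes of mouse chromosome 11, the chromosome that also carries Krt19, the site of the CreERT insertion used to delete Glut1 (Slc2a1) in the nucleus pulposus (NP). They were selected on the measured difference between the genotypes: they are the only entries with a chromosome 11 code among the 39 probe sets in the authors' deposited table of calls, and the array held 1629 probe sets with that code among 22206 in all. The call rule was an unadjusted p under 0.05 with at least a 2-fold difference between the genotypes, so the differences between genotypes are given below as a description and were not tested.

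NP RNA came from 6 control mice (Glut1f/f without Cre, called WT) and 6 K19Cre; Glut1f/f mice (called cKO), with 1 Mouse Clariom S array per mouse. Both groups carried the floxed Glut1 alleles, were given 3 daily tamoxifen injections of 100 μg per g body weight at 3 months of age, and were 9 months old at collection. CreERT was driven by the Krt19 locus, and no group carried the Cre allele with an undeleted Glut1. Carriage of Cre, the chromosome 11 DNA inherited with it and loss of Glut1 therefore went together by design, and their parts in any difference between the groups cannot be told apart. In whole tissue, fewer cells of a type and less RNA per cell cannot be told apart either.

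The 3 genes have unrelated roles. XAF1 (XIAP-associated factor 1) is an interferon-inducible protein that binds the caspase inhibitor XIAP and counters it. PTTG1 is securin, which holds the protease separase inactive until anaphase, when securin is degraded and sister chromatids part. GEMIN5 is the subunit of the SMN complex that recognises small nuclear RNAs for assembly into spliceosomal particles. KRT19 is a keratin that marks NP cells in the adult disc.

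In GRCm38, the build of the authors' annotation, the RefSeq gene table placed the genes in the order Pttg1 (chromosome 11, 43420244 to 43427463), Gemin5 (58120001 to 58168554), Xaf1 (72301461 to 72313733) and Krt19 (100140810 to 100145926). The gaps to Krt19 were thus 56.7 Mb for Pttg1, 42 Mb for Gemin5 and 27.8 Mb for Xaf1. The promoter windows of Xaf1 and Gemin5, the pair whose levels ran most closely together among WT mice, are shown so that the sequences at their starts can be compared. Each holds 250 bases before a transcription start of the RefSeq promoter table and 30 after it (GRCm38.p6). These starts lie inside the gene spans above, which reach to the outermost transcript, by 168 bases for Xaf1 and 15 for Gemin5. The letters are in lower case, with capitals for matches to AANNGAAA (the core that interferon regulatory factors bind), CCAAT or GGGCGG (a GC box) on either strand.
Xaf1 (chr11:72301379-72301658, plus strand): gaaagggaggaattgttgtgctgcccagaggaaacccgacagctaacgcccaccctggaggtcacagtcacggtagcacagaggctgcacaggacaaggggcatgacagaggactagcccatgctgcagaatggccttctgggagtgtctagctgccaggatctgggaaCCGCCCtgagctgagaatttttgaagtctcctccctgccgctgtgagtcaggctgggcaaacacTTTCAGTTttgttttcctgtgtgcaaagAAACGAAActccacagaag
Gemin5 (chr11:58168510-58168789, minus strand): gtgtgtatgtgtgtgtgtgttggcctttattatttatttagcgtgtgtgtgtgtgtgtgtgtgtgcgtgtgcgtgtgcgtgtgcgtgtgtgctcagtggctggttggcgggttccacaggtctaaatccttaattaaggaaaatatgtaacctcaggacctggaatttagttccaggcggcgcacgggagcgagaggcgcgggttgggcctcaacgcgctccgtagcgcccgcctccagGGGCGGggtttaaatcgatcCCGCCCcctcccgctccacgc
The Xaf1 window held 2 matches to AANNGAAA, one beginning 17 bases before the start and the other at base 12 after it, and 1 match to GGGCGG. The Gemin5 window, the first of 2 starts listed for that gene, held 2 matches to GGGCGG and none to AANNGAAA. The window listed for Pttg1 lies 1482 bases inside its gene span and is not described. Over 27025 RefSeq promoter windows of this length, AANNGAAA occurred in 23.3%, CCAAT in 36.6% and GGGCGG in 34.9%, so a match is a common feature of such windows.

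Slc2a1, the deleted gene, was read first as a check of the labels. Its log2 signal was 18.86 to 19.31 in WT and 17.76 to 18.31 in cKO, without overlap. The array medians lay between 6.55 and 6.66 and no 2 arrays were the same. Each array was a separate mouse, and their number limits the precision. All signals below are log2 values on the authors' scale, and levels are compared between mice and not between genes.

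The log2 signal of Xaf1 was 10.16 at the lowest, 11.02 at the median and 12.99 at the highest in WT, and 11.42, 12.82 and 13.57 in cKO. The means were 11.20 ± 1.00 (SD, n = 6) and 12.74 ± 0.74 (SD, n = 6), a difference of 1.54 (standard error 0.42), or 2.92-fold. The genotypes overlapped through 1 mouse each, WT mouse 6 at 12.99 and cKO mouse 1 at 11.42. The other 5 WT mice lay at 11.49 or below, and the other 5 cKO mice at 12.58 or above. Sorted without regard to genotype, the 12 mice fell into 6 low and 6 high ones, with the widest gap (1.09) between 11.49 and 12.58. A gap that wide was present in 1.33% of all probe sets. The low and high sides of the Xaf1 gap matched genotype in 10 of the 12 mice. The choice of Xaf1 on the difference between genotypes fixes that match in part.

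Pttg1 had the widest spread of the members. Its log2 signal was 7.09, 9.89 and 11.06 (lowest, median and highest) in WT and 10.52, 11.12 and 11.81 in cKO. The means were 9.27 ± 1.68 (SD, n = 6) and 11.16 ± 0.62 (SD, n = 6), which differed by 1.89 (standard error 0.60), or 3.69-fold. WT mice 4 and 5, at 7.29 and 7.09, lay far below all others, and the gap of 2.31 from them to the next mouse (WT mouse 3, at 9.60) was equalled or exceeded in 0.293% of all probe sets. The remaining WT mice reached 11.06 and overlapped cKO, in which 3 of 6 mice lay above every WT mouse. The size of the difference rested on those low mice. By the medians of the mice it was 1.24, and it was 1.49 without WT mouse 4 and 1.45 without WT mouse 5. Among the cKO mice, mice 2, 4 and 5 (11.54 to 11.81) stood 0.83 above mice 1, 3 and 6 (10.52 to 10.71).

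Gemin5 differed least. Its log2 signal was 7.88, 8.28 and 9.70 (lowest, median and highest) in WT and 9.13, 9.38 and 9.69 in cKO. The means were 8.55 ± 0.71 (SD, n = 6) and 9.39 ± 0.18 (SD, n = 6), a difference of 0.84 (standard error 0.26), or 1.79-fold, which is under 2-fold. WT mice 2 to 5 lay at 7.88 to 8.40, and WT mice 1 and 6, at 9.12 and 9.70, were level with cKO. The widest gap, 0.72, ran from 8.40 to 9.12 and set 4 WT mice apart from the other 8 mice. A gap as wide was present in 5.4% of all probe sets. No cKO mouse lay above the highest WT mouse, and 5 of 6 WT mice lay below every cKO mouse.

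**Figure D1:**
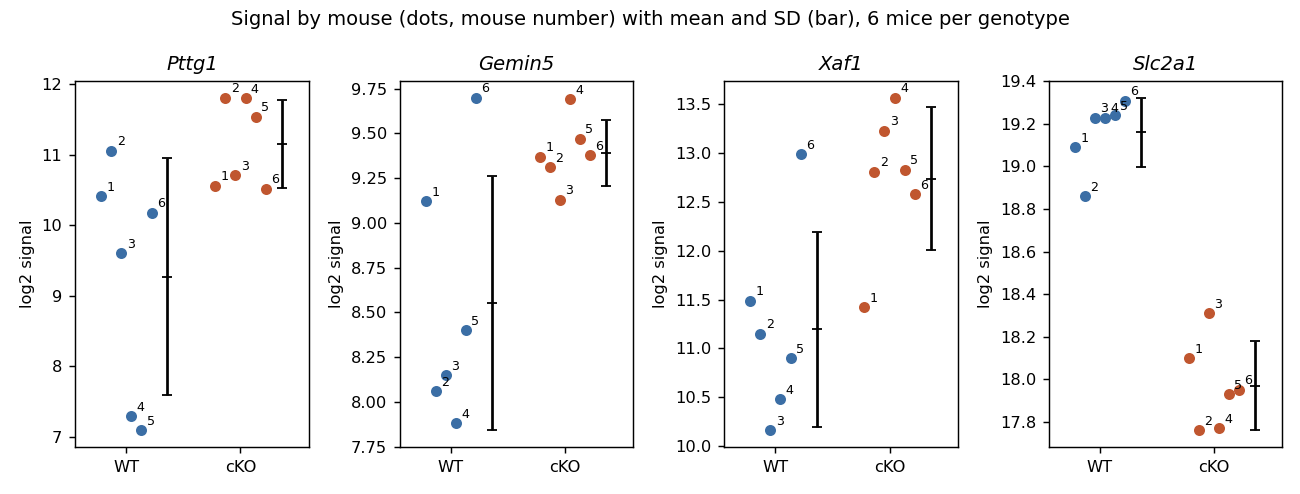
Log2 signal (vertical axis) of Pttg1, Gemin5, Xaf1 and the deleted gene Slc2a1 in 6 WT and 6 cKO mice; each dot is a mouse with its number, and the bar is the mean with SD. The members overlap between genotypes, through WT mouse 6 and cKO mouse 1 for Xaf1, while Slc2a1 does not overlap.

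All 3 members were higher in cKO by means, and 6 of 6 cKO mice lay above the WT mean for each, which the choice of the genes from the table of calls fixes in part. With Tukey biweight averages, which give less weight to mice far from the centre and are the summary used by the authors' console software, the log2 differences were 2.00 for Xaf1, 1.34 for Pttg1 and 1.12 for Gemin5. With these averages the rule called 39 of 22206 probe sets (0.176%), 21 of them higher in cKO (0.0946%), and the 3 members were all of those called among the 1629 with a chromosome 11 code (0.184%). Gemin5 lay just inside the 2-fold limit, and the nearest probe set of chromosome 11 outside it, which has no name in the files, differed by 0.96. By means it called 25 probe sets (0.113%), 13 of them higher in cKO (0.0585%), among them Xaf1 and Pttg1, which were 2 of 1629 on chromosome 11 (0.123%), and it left out Gemin5. On chromosome 11 these calls were the members alone, so their shared direction follows in part from the choice of the genes. The calls over the whole array ran both ways. At a 1.5-fold limit the share called was 0.859% of the 1629 probe sets of chromosome 11 and 0.802% of all 22206, which is close. On chromosome 11, 10 were higher and 4 lower, against 90 and 88 over the whole array, and this split was not tested. At an adjusted p under 0.05 limma called 1 probe set in all and 0 on chromosome 11, so none of the members passed that threshold. Genotypes that did not overlap at all were seen in 61 probe sets (0.275%), of which 8 carried the chromosome 11 code (0.491%). None of the 3 members was among them.

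The members varied more among WT than among cKO mice, with SDs of 1.00 against 0.74 for Xaf1, 1.68 against 0.62 for Pttg1 and 0.71 against 0.18 for Gemin5. The larger SD was also in WT for 68.8% of all probe sets. By their SD within the genotypes, Pttg1 stood at percentile 99.3 of all probe sets, Xaf1 at 98.6 and Gemin5 at 93.1. The shares given above for the widest gaps were not scaled to this spread.

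Read in chromosomal order, the low and high sides of the 3 genes were nested. The 6 mice on the high side for Xaf1 (WT mouse 6 and cKO mice 2 to 6) were also high for Gemin5, and the 8 mice high for Gemin5 were also high for Pttg1. WT mouse 1 and cKO mouse 1 were high for Pttg1 and Gemin5 and low for Xaf1. WT mice 2 and 3 were high for Pttg1 alone, and WT mice 4 and 5 were low for all 3 genes. Thus 6 mice were high for 3 members, 2 mice for 2, 2 mice for 1 and 2 mice for none. The side was set for each gene at its own widest gap after the values were seen, and the nesting was not tested. The genes were chosen from the calls between genotypes and all were higher in cKO. That choice puts most cKO mice on the high side and fixes the nesting in part. The genotypes of these mice along chromosome 11 were not analysed here.

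**Figure D2:**
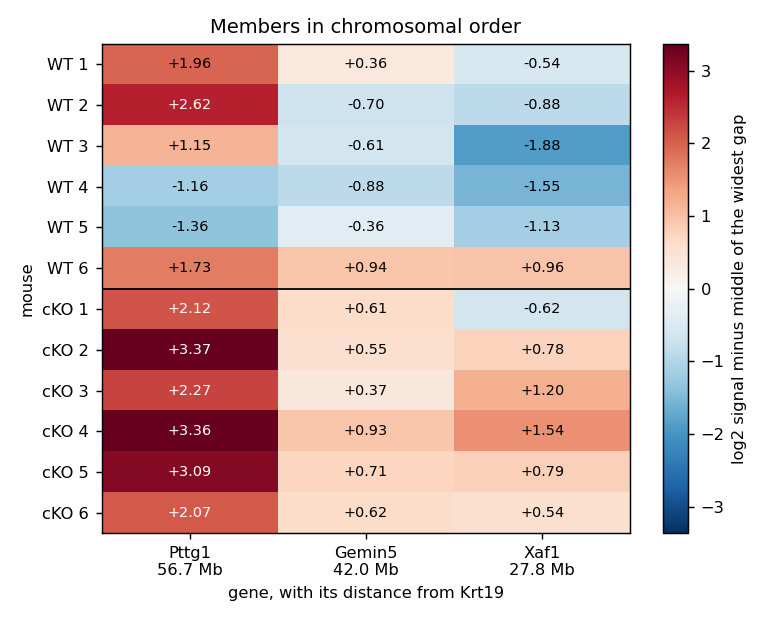
Signal of each mouse (rows) for the members in chromosomal order (columns, with the distance from Krt19 in Mb), as the log2 signal minus the middle of the widest gap of that gene; red is above and blue below. Blue cells of Pttg1 are in WT mice 4 and 5, those of Gemin5 in WT mice 2 to 5, and those of Xaf1 in WT mice 1 to 5 and cKO mouse 1.

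Whether the members vary together was asked within each genotype, where the choice of genes does not set the answer. Among the 6 WT mice Xaf1 and Gemin5 had the closest relation, with Pearson r = 0.90 (exact two-sided permutation p = 0.0153, adjusted p = 0.183 over 12 relations) and Spearman rho = 0.71 (exact permutation p = 0.136, adjusted p = 0.689). Without the 2 WT mice farthest from the median of Xaf1, r was 0.82, and without WT mouse 6 it was 0.70. The relation did not pass the adjusted threshold. Among the 6 cKO mice the same pair had r = 0.22 (exact permutation p = 0.647, adjusted p = 0.706) and rho = 0.26 (exact permutation p = 0.658, adjusted p = 0.915), and -0.78 without the farthest 2 mice. Whether the relation differs between the genotypes was not tested.

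The relations of Pttg1 to the other members missed the threshold too. Xaf1 and Pttg1 had r = 0.43 in WT and 0.56 in cKO (rho = 0.54 in both), with exact permutation p = 0.419 and 0.278 for r and 0.297 and 0.297 for rho. Their adjusted p was 0.683 and 0.639 for r and 0.689 for rho in both genotypes. Without the 2 farthest mice these r were 0.79 and -0.06. Pttg1 and Gemin5 had r = 0.39 in WT (rho = 0.14) and 0.53 in cKO (rho = 0.09), with exact permutation p = 0.456 and 0.319 for r and 0.803 and 0.919 for rho. Their adjusted p was 0.683 and 0.639 for r and 0.915 and 0.919 for rho, and r became -0.12 and 0.46 without the 2 mice farthest from the median of Pttg1. The smallest exact p that 6 mice allow is 0.00139 for r and 0.00278 for rho, or 0.0167 and 0.0333 if 1 of 12 relations reached it.

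**Figure D3:**
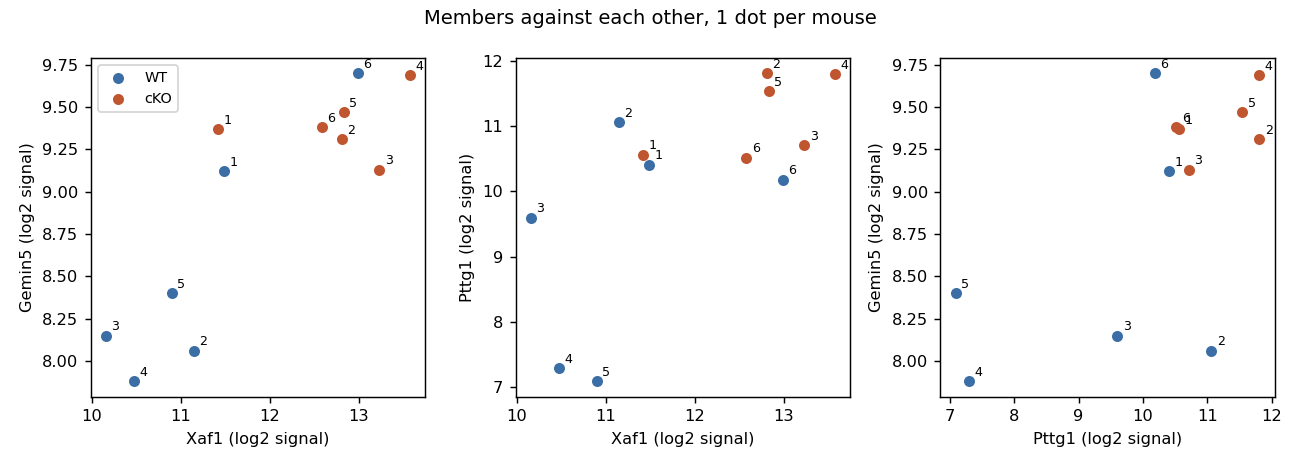
Log2 signals of the members plotted against each other, 1 dot per mouse with its number, WT in blue and cKO in orange. WT mouse 6 and, less so, WT mouse 1 stand above the other WT mice in the plot of Xaf1 and Gemin5 (r = 0.90 in WT), while the cKO mice show no clear line (r = 0.22).

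The members were also set beside the Slc2a1 signal of each mouse. This log2 signal spanned only 0.55 among cKO and 0.45 among WT mice, so the relations rest on small differences between mice. Among cKO mice, Pttg1 had r = -0.76 with Slc2a1 (exact permutation p = 0.1, adjusted p = 0.483) and rho = -0.77 (exact permutation p = 0.103, adjusted p = 0.689). Gemin5 had r = -0.71 (exact permutation p = 0.121, adjusted p = 0.483) and rho = -0.43 (exact permutation p = 0.419, adjusted p = 0.719). Xaf1 had r = -0.24 (exact permutation p = 0.646, adjusted p = 0.706) and rho = -0.20 (exact permutation p = 0.714, adjusted p = 0.915). Without the 2 mice farthest from the median of the member, r was -0.39, 0.37 and 0.76 in that order. Among WT mice, whose Slc2a1 was not deleted, r was -0.56 for Pttg1 (rho = -0.64), 0.33 for Gemin5 (rho = 0.49) and 0.14 for Xaf1 (rho = 0.12). The exact permutation p of these WT relations was 0.219, 0.536 and 0.75 for r and 0.2, 0.344 and 0.839 for rho, and adjusted p was 0.639, 0.706 and 0.75 for r and 0.689, 0.689 and 0.915 for rho. They became -0.84, 0.21 and -0.54 without the 2 farthest mice. None of the 12 relations passed an adjusted p of 0.05 by either measure, and 1 of 12 had an unadjusted exact permutation p under 0.05 by r and 0 by rho.

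Likeness to every other probe set was then described by Pearson r over the 12 mice after each genotype mean was removed. The values share the same arrays, and no test was made. Gemin5 ranked 75 among 22205 probe sets by likeness to Xaf1, and Xaf1 ranked 87 by likeness to Gemin5 (r = 0.74). WT mice, with the larger SDs, weigh most in this measure, and within the cKO mice alone the pair had r = 0.22. Pttg1 stood farther off, at rank 1905 for Xaf1 (r = 0.44) and 2314 for Gemin5 (r = 0.40). Of the 100 probe sets most like each member, 8 carried the chromosome 11 code for Xaf1, 8 for Pttg1 and 6 for Gemin5, where 7.34% of the array carries it. The chromosome 11 probe sets as a whole thus did not stand out among those that ran with the members from mouse to mouse within the genotypes. Their median r was -0.02 for Xaf1, 0.05 for Pttg1 and -0.04 for Gemin5. Removal of the genotype means takes out all variation that follows Cre carriage. This measure therefore cannot show whether chromosome 11 DNA inherited with Cre has a part, and a few linked probe sets would not show in the whole.

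**Figure D4:**
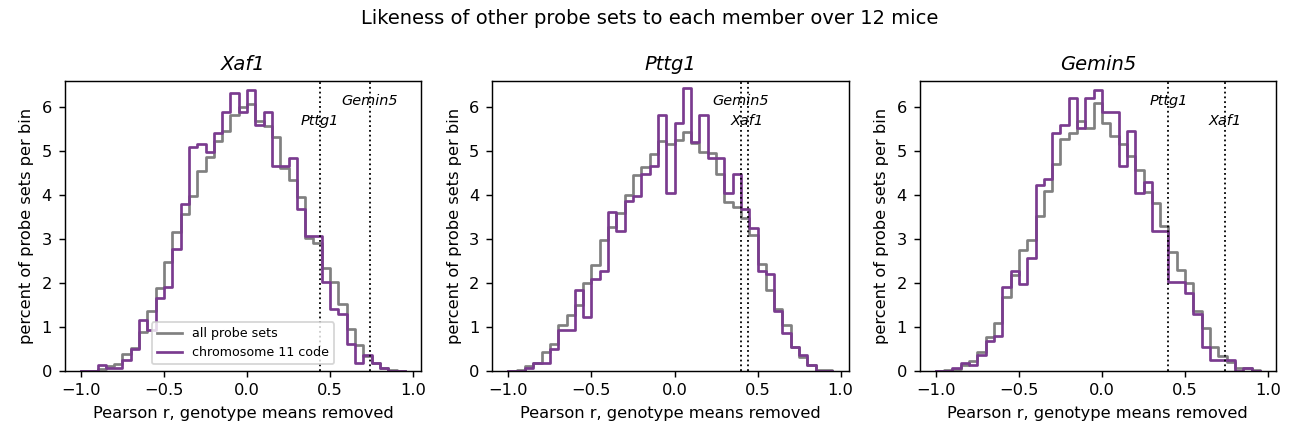
Pearson r of all other probe sets (grey) and of those with a chromosome 11 code (purple) with each member over 12 mice after removal of genotype means, as the percent of probe sets per bin; dotted lines mark the other members. The grey and purple outlines nearly coincide, and Gemin5 and Xaf1 lie at 0.74 for each other.

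Among the 33 other named probe sets with 1 symbol, those most like Pttg1 were Dbp, a circadian output transcription factor (r = 0.70), Minos1, of the mitochondrial inner membrane organizing complex (0.67), and Atp5d, an ATP synthase subunit (0.64). Those most like Xaf1 were Sv2c, a synaptic vesicle glycoprotein (0.50), the receptor tyrosine kinase Tyro3 (0.48) and the serine protease inhibitor Serpina3n (0.47). Sv2c (0.52), Serpina3n (0.46) and Enpp2, which encodes autotaxin (0.38), came next to Gemin5. Sv2c ranged from 3.94 to 9.44 in WT and only from 3.72 to 4.07 in cKO, so its likeness to Xaf1 and Gemin5 rests on WT mice. None of these genes lies on chromosome 11. The 33 could be named only because they are among the authors' calls, and none of these r was among the 100 highest for its member. The 100 probe sets most like each member began at r = 0.72 for Xaf1, 0.75 for Pttg1 and 0.73 for Gemin5. No gene of the lists for interferon response and XIAP (21 genes), securin and mitosis (13) or the SMN complex (15) could be named in the files, so the partners of the members were not analysed here. Of the cell type markers, only Slc2a1 (of 6 for the NP) and Dcn (of 4 for annulus fibrosus and fibroblasts) could be named. Slc2a1 is the deleted gene and checks the deletion, not the tissue, so the tissue content was not checked. Dcn, the proteoglycan decorin and itself an entry of the table of calls, had a log2 signal of 7.30, 9.34 and 12.45 (lowest, median and highest) in WT and 6.08, 7.74 and 8.84 in cKO. It moved with genotype in the opposite direction to the members (mean difference -1.66). Within WT its Pearson r was 0.24 with Xaf1, 0.38 with Pttg1 and 0.27 with Gemin5, and within cKO -0.08, -0.07 and -0.24. These r were not tested, nor was the part of Dcn in the members' differences.

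The cohort held males and females of both genotypes by the methods, not assigned to arrays in the labels. Probe sets with a Y chromosome code had a high mean log2 signal (7.46 to 8.70) on the arrays of WT mice 1 to 4 and cKO mice 1 to 3 and a low one (5.43 to 5.51) on the other 5. Xaf1 was 10.16 to 11.49 in the 4 WT and 11.42 to 13.23 in the 3 cKO mice of high Y-coded signal, and 10.90 and 12.99 in the 2 WT and 12.58 to 13.57 in the 3 cKO mice of low signal. Gemin5 was 7.88 to 9.12 and 9.13 to 9.37 in the WT and cKO mice of high Y-coded signal, and 8.40 and 9.70 against 9.38 to 9.69 in those of low signal. Pttg1 was 7.29 to 11.06 and 10.56 to 11.81 in the WT and cKO mice of high Y-coded signal, and 7.09 and 10.18 against 10.52 to 11.80 in those of low signal. The log2 difference between cKO and WT was 1.67 within high and 1.05 within low signal for Xaf1, 1.44 and 2.65 for Pttg1, and 0.97 and 0.46 for Gemin5. The members were thus higher in cKO by means within both sets of arrays, which the choice of the genes fixes in part. Whether the differences depend on the set was not tested.

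**Figure D5:**
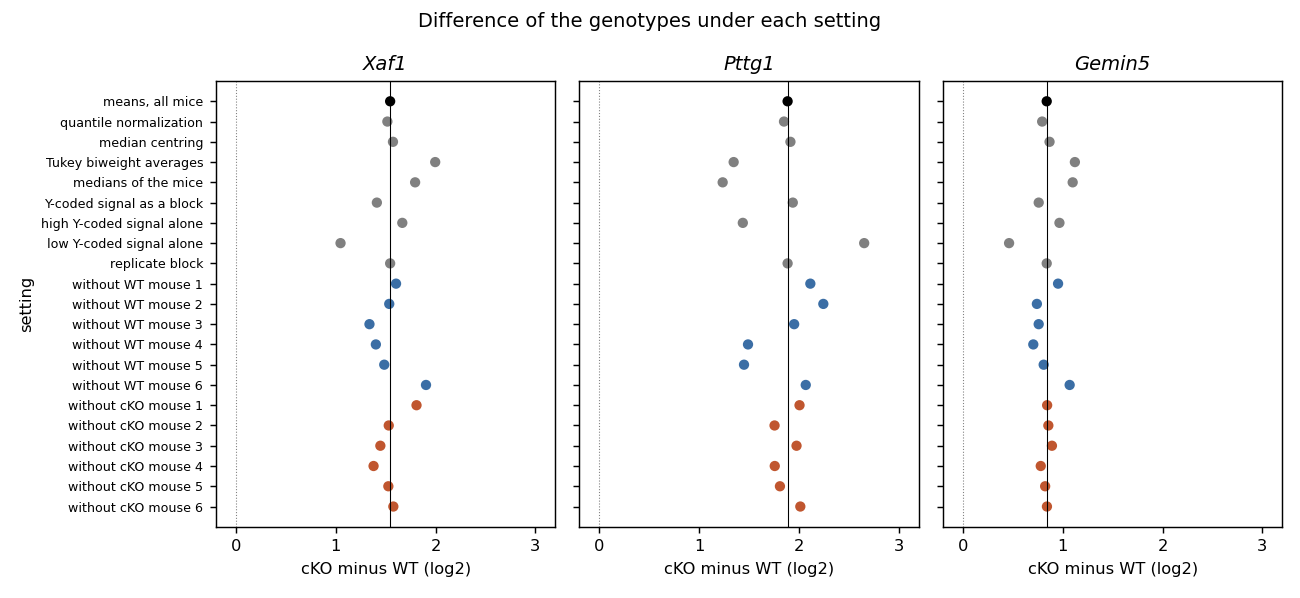
Log2 difference between cKO and WT (horizontal axis) of each member by means of all mice (black, with the vertical line), by other averages, scales and blocks (grey), and without each WT (blue) or cKO (orange) mouse. All points lie above 0, from 0.46 for Gemin5 on arrays of low Y-coded signal to 2.65 for Pttg1 on the same arrays. The choice of the genes fixes this direction in part.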

How the data were processed

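NP RNA of 6 WT and 6 cKO mice was measured on Mouse Clariom S arrays, 1 per mouse. The deposited values are log2 signals of 22206 probe sets, which the authors made by SST-RMA in Expression Console. This step puts the arrays on 1 scale, and its effect on differences of dim or very bright probe sets was not examined. The authors' deposited table of calls, from Transcriptome Analysis Console, was read only for its 39 identifiers and gene symbols (37 with 1 symbol), and its averages, fold changes and p-values were not used. The second table of calls, of a single gene, was not used.

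The members, lists and tests were chosen with earlier results of these data known. All probe sets were compared between genotypes with limma 3.58.1 (lmFit, eBayes, Benjamini-Hochberg) in R 4.3.3, without covariates or a filter, after the fit was tested on simulated data. Relations within a genotype were tested by exact permutation of the pairings and adjusted over 12 relations. Gene positions and promoters came from RefSeq tables of GRCm38.p6, in which the 3 members and Krt19 matched by symbol. Named were the members, Slc2a1, Krt19, listed genes and the 3 named probe sets most like each member. Alternatives were quantile normalization, median centring, Tukey biweight averages (constants 5 and 0.0001), medians, omission of dim probe sets (kept if above the 30th percentile on at least 6 arrays), trend and robust options, a 1.5-fold limit, Y-coded signal as a block or in sets (split where the array means were farthest apart), the replicate number as a block, Spearman rho and omission of each mouse.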

Additional observations from a re-analysis of the deposited data

How the results depend on the processing

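All 60 alternative values of the members' differences kept their direction and moved by less than 1 SD between mice. Those with the replicate number as a block equal the main values by the balanced design. The choice of the genes on this difference in the same mice fixes the direction in part. On leaving out 1 mouse they ran from 1.34 to 1.90 for Xaf1, 1.45 to 2.24 for Pttg1 and 0.71 to 1.07 for Gemin5, which passed 2-fold by means only without WT mouse 6. Over all probe sets the 25 calls became 39 with biweight averages, 178 at a 1.5-fold limit and 21 to 45 without 1 mouse (45 without WT mouse 2, 39 without WT mouse 6). The 2 calls of chromosome 11 became 14 at the 1.5-fold limit and 2 to 3 without 1 mouse. The cause was not tested, beyond the lower limit and the smaller number of mice.

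Mice of the 2 genotypes shared replicate numbers, but deviations of same-numbered mice correlated at -0.26 to 0.39, with 5 of 6 above 0 (median 0.22, against -0.06 for different numbers). Since not every pair was above 0.1 and the labels name no shared litter or batch, the numbers were not taken to pair the mice. Same-numbered mice lay on the same side of the Y-coded signal except for number 4, the pair at -0.26. Whether the Y-coded signal accounts for these correlations was not tested. With the number as a replicate block the 25 calls became 40, and 2 of 6 WT mice correlated best with their own number in cKO. Each number occurs once per genotype, so this block cannot change the members' differences.

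No relation passed the adjusted threshold under other scales or by rho. With mice left out, the relations concerned could hardly pass (5 or 4 mice), so those settings do not bear on it. Without the 2 farthest mice the sign turned for Xaf1 and Gemin5 in cKO (-0.78), Xaf1 and Pttg1 in cKO (-0.06), Pttg1 and Gemin5 in WT (-0.12), Xaf1 and Slc2a1 in WT (-0.54) and cKO (0.76), and Gemin5 and Slc2a1 in cKO (0.37). Without 1 mouse, r ran from -0.42 to 0.66 for Xaf1 and Gemin5 in cKO, -0.60 to 0.30 for Xaf1 and Slc2a1 in WT, -0.88 to 0.06 for the same pair in cKO and -0.04 to 0.50 for Gemin5 and Slc2a1 in WT. The cause was not tested. Signal over background is not known for these probe sets.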
